A study of Sus scrofa with 2 samples.

Results

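The acinar nuclei richest in mitochondrial RNA were examined in the pancreas of 1 WT and 1 PIGinH11 pig. They were chosen by the share of their UMIs (unique molecular identifiers, each counted as 1 RNA molecule) that came from the 13 protein-coding genes of the mitochondrial genome. Nuclei with 270 to 3700 genes and fewer than 13000 UMIs entered the acinar gate when 7 acinar genes (CHN2, EFEMP1, AGMAT, EXTL1, ADAD1, CDH4 and RBPJL) together gave at least 3 UMIs and at least 0.6% of the UMIs, and 3 ductal genes (SLC4A4, PKHD1 and SCTR) gave less than 0.3%. The top 5% of this gate in each library are called members below. There were 446 members among 8925 gate nuclei in the WT library and 489 among 9782 in the PIGinH11 library, which made 935 of 18707 gate nuclei and of 28583 barcodes in all. The remaining 8479 and 9293 gate nuclei are called the rest.

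The mitochondrial genome encodes subunits of the respiratory chain and of ATP synthase, and its mRNAs are made and translated inside the mitochondrion. The other subunits of these complexes are encoded in the nucleus and their proteins are imported. A nucleus holds no mitochondria, so mitochondrial mRNA in single-nucleus data is RNA captured along with it, and its share is a common measure of nucleus quality. Acinar cells make the digestive enzymes of the pancreas, and their cytoplasm is packed with rough endoplasmic reticulum and with very abundant enzyme mRNAs.

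Single-nucleus RNA sequencing was performed on 1 piece of pancreas of a wild-type Bama pig and 1 of a transgenic Bama pig with knock-in of GIPRdn (a dominant-negative GIP receptor), hIAPP (human islet amyloid polypeptide) and PNPLA3I148M (a variant lipase linked to fatty liver), which were placed under promoters for beta cells or liver and none for acinar cells. Both pigs were 18 months old, had eaten the control diet up to an age of 6 months and then a high-fat and high-sucrose diet (HFHSD) for 12 months, so that the diet was shared by both groups. The WT matrix held 55784067 UMIs in 13619 barcodes and the PIGinH11 matrix 26228811 UMIs in 14964 barcodes. With 1 library per group, genotype, animal, tissue piece and library cannot be told apart, no test between the groups was made, and members were compared with the rest inside each library.

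Levels are given as UMIs per 1000000 UMIs of the same nuclei (CPM), and differences as the log2 ratio of members over the rest. Intervals are exact 95% intervals (Poisson for CPM, Clopper–Pearson for shares, conditional binomial for ratios), which cover counting error only, since nuclei of 1 library are not replicates. The libraries shared 60 barcodes, of which 33 lay in both acinar gates and 0 were members of both, while 7 barcodes of members were found in the other library.

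The mitochondrial level that chose the members differed between the libraries. In the WT library, mitochondrial genes made up 13135 CPM in members and 1027 CPM in the rest, and the median share of a nucleus was 1.11% and 0.0783%. They made up 4628 and 352.9 CPM in the PIGinH11 library, and the median share was 0.355% in members and 0 in the rest. The highest share was 7.92% in the WT library, and 1 PIGinH11 member was above 10%, the limit of the study's own filter. Members held 28.2% of the mitochondrial UMIs of the WT gate and 35.2% of those of the PIGinH11 gate, against 2.97% and 3.98% of all UMIs. At the border, the lowest WT member had 10 mitochondrial UMIs of 1406 (0.7112%) and the highest nucleus outside had 7 of 985 (0.7107%). The lowest PIGinH11 member had 2 of 831 (0.2407%) and the highest nucleus outside had 4 of 1665 (0.2402%).

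**Figure D1:**
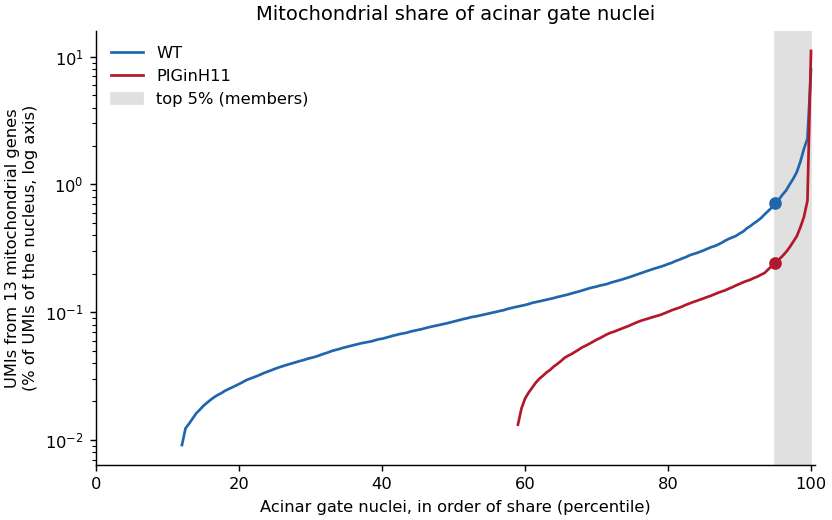
Mitochondrial share of the UMIs of a nucleus (log axis) against the percentile of the nucleus in the acinar gate, with 1 line per library, the members shaded and the lowest member drawn as a point. The lines begin where the share leaves 0, and they bend upwards inside the shaded range with no step at 0.7112% (WT) or 0.2407% (PIGinH11).

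Membership rested on few molecules in the PIGinH11 library. WT members had a median of 23 mitochondrial UMIs and PIGinH11 members a median of 4, and 224 PIGinH11 members (45.8%) had 3 or fewer compared with 0 WT members. At least 10 mitochondrial UMIs were found in 391 WT members and in 88 PIGinH11 members. In the rest, 12.5% of WT nuclei and 61.9% of PIGinH11 nuclei had no mitochondrial UMI. The members are therefore the upper end of a continuous range, and in the PIGinH11 library many of them lay within a few UMIs of the rest.

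Members were shallower than the rest. A WT member had a median of 1786 UMIs from 1044 genes (rest 3210 and 1676), and a PIGinH11 member had a median of 968 UMIs from 692 genes (rest 1276 and 863). Of the WT gate nuclei with 500 to 1000 UMIs, 12.8% were members, compared with 1.5% of those with 4000 UMIs and over. These shares were 7.24% and 2.72% in the PIGinH11 library. A doublet score (Scrublet) that marked 10.9% and 12% of all barcodes marked 3 WT members (0.673%) and 17 PIGinH11 members (3.48%), against 9.51% and 9.38% of the rest. Because depth moved with membership, several ratios below are also given by depth, without the deepest nuclei or with the rest weighted to the depth of the members (depth-weighted), and the part of depth beyond those values was not tested.

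Within their sum, which chose the members, the 13 mitochondrial genes took nearly the same proportions in members and rest. COX1, which encodes the catalytic subunit of cytochrome c oxidase, was the most abundant in WT members with 4078 CPM (rest 309.5) and took 31.0% of the mitochondrial UMIs in members and 30.1% in the rest. It was found in 98.2% of WT members and in 65.0% of PIGinH11 members. COX3, another core subunit of that enzyme, was the most abundant in PIGinH11 members with 1389 CPM (rest 110.9) and took 30.0% and 31.4%. Per kb of gene, COX3 was the highest gene in both libraries, at 3812 CPM per kb in WT and 1771 CPM per kb in PIGinH11 members. The order of the genes thus differed between the libraries at the top, whereas members and rest of the same library were alike.

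COX2 and ATP6, a subunit of cytochrome c oxidase and one of ATP synthase, followed with 1470 and 1670 CPM in WT members and with 585.7 and 488.1 CPM in PIGinH11 members. CYTB, the mitochondrial subunit of complex III, was at 914.1 and 307.4 CPM. Among the subunits of complex I, ND4 was the highest with 926.2 and 332.2 CPM, and ND6, the gene on the other strand of the genome, was at 67.67 and 42.25 CPM. ATP8, whose reading frame overlaps that of ATP6, gave 7 UMIs in WT members and 2 in PIGinH11 members. The genes lie on the mitochondrial genome of Sscrofa11.1 between ND1 (MT:3922-4876) and CYTB (MT:15342-16481). Members over the rest ranged from 9.22-fold (ND6) to 28.5-fold (ATP8, which rests on those 7 UMIs) in the WT library and from 9.65-fold (ATP8) to 14.6-fold (ND4L) in the PIGinH11 library.

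**Figure D2:**
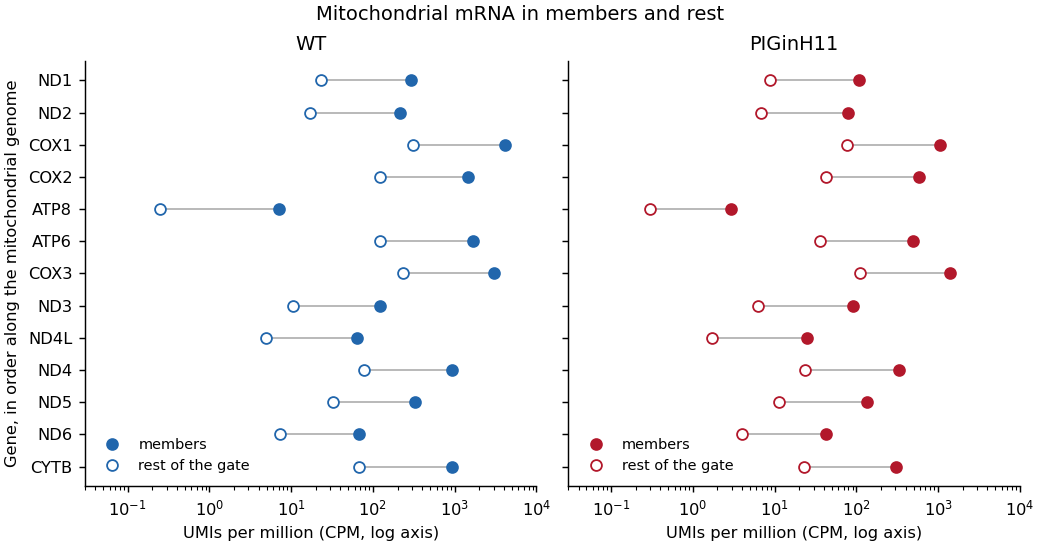
CPM (log axis) of each of the 13 mitochondrial mRNAs in members (filled points) and in the rest of the gate (open points), WT on the left and PIGinH11 on the right, with genes in their order along the genome. The gap between the points is of like width in all genes but ATP8 in WT, and the genes with the highest level are COX1 and COX3.

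A readout that the choice did not use was obtained by splitting the 13 genes. When the top 5% were chosen by COX1, COX2, COX3, ATP6, ATP8 and CYTB alone, the 7 ND genes were at 1906 CPM in the nuclei chosen and at 176.3 CPM in the others of the WT library, a ratio of 10.8 (10.3 to 11.4). In the PIGinH11 library, they were at 618.4 and 70.15 CPM, a ratio of 8.81 (7.87 to 9.86). When the ND genes chose, the other 6 genes were 10-fold (9.77 to 10.3) higher in the WT library and 5.49-fold (5.15 to 5.84) higher in the PIGinH11 library. The ND genes, which have fewer UMIs, picked 277 of the 446 WT members (62.1%) and 192 of the 489 PIGinH11 members (39.3%) again, and the other 6 genes picked 92.8% and 83.2% again. Genes of both groups were thus high in the same nuclei, and the identity of single members was less firm in the PIGinH11 library.

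As a sum, the respiratory chain genes of the nucleus did not follow the mitochondrial ones. The 70 nuclear-encoded subunits on the list summed to 1598 CPM in WT members and 1622 CPM in the rest, a log2 ratio of −0.02 (−0.095 to 0.051). In the PIGinH11 library, they summed to 1693 and 1602 CPM, a log2 ratio of 0.08 (−0.007 to 0.164). Relative to the median gene, the ratios were 0.13 and 0.18, so that the sign changed with the scaling in WT, and the PIGinH11 value was −0.02 after thinning to 500 UMIs. For comparison, the median log2 ratio of all genes counted was −0.15 in WT and −0.10 in PIGinH11, and that of the subunits was −0.16 in both, with 6 of 25 (24%) and 3 of 11 (27.3%) above 0, compared with 30.4% and 35.7% of all genes counted. NDUFB3, a complex I subunit named here after its value was seen, was the only subunit counted that differed 2-fold (log2 −1.01 in WT, from 13 UMIs). Most subunits had too few UMIs to be counted in both libraries and entered the sums only, and single ones went either way. For example, and named after their values were seen, COX5B had log2 ratios of 1.245 and 1.27 from 17 and 9 UMIs. NDUFS3 had −0.66 and −0.23 from 8 and 6 UMIs. COX4I1, a nuclear-encoded subunit of cytochrome c oxidase, was at 59.59 CPM in WT members and 37.8 CPM in the rest (log2 0.66, 0.254 to 1.034), and at 43.71 and 29.84 CPM in the PIGinH11 library (log2 0.55, −0.033 to 1.083). SDHA, the catalytic subunit of succinate dehydrogenase, was at 27.27 and 44.58 CPM in WT (log2 −0.71) and at 37.88 and 50.39 CPM in PIGinH11 (log2 −0.41, −1.034 to 0.15).

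The nuclear genes that serve the mitochondrial genome were at similar levels in members and rest, with ratios whose sign depended on the scaling in WT. The list of genes for the copying, transcription and RNA processing of mitochondrial DNA and of nuclear regulators of mitochondrial genes, of which 28 were in the matrices, summed to 929.2 CPM in WT members (rest 995.5) and to 1020 CPM in PIGinH11 members (rest 1015). TFAM, which packages mitochondrial DNA and starts its transcription, was at 33.33 CPM in WT members and 40.71 CPM in the rest, and at 24.77 and 42.53 CPM in the PIGinH11 library. PNPT1, an RNA-degrading enzyme of mitochondria, was lower in members of both libraries, with log2 ratios of −0.89 (−1.523 to −0.323) and −0.84 (−1.691 to −0.113) from 25 and 15 UMIs. FASTK, whose product binds mitochondrial RNA, had log2 ratios of 0.75 (0.316 to 1.159) and 0.44 (0.008 to 0.852). Genes of mitophagy and of mitochondrial fusion and fission summed to 859.5 CPM in WT members (rest 864.3) and to 922.3 CPM in PIGinH11 members (rest 944.4).

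Across all genes, few passed a 2-fold difference. A gene was counted when at least 20 UMIs were expected in the members, and the 13 mitochondrial protein-coding genes and the gate genes were left out. In the WT library, 18 of 6250 genes (0.288%) were at least 2-fold higher and 85 (1.36%) at least 2-fold lower in members. In the PIGinH11 library, 49 of 5476 (0.895%) were higher and 23 (0.42%) lower. Relative to the median gene, these were 39 higher and 58 lower in WT and 59 higher and 14 lower in PIGinH11. Without nuclei of 4000 UMIs and over, they were 11 higher and 71 lower in WT and 11 higher and 28 lower in PIGinH11. Of the 5279 genes counted in both libraries, 10 (0.189%) were higher and 2 (0.0379%) lower in both, and 0 passed 2-fold in opposite directions. The log2 ratios of the libraries, whose points are genes and not replicates, had a Pearson correlation of 0.436 and a Spearman correlation of 0.323, and the sign was the same for 69.7% of the genes.

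**Figure D3:**
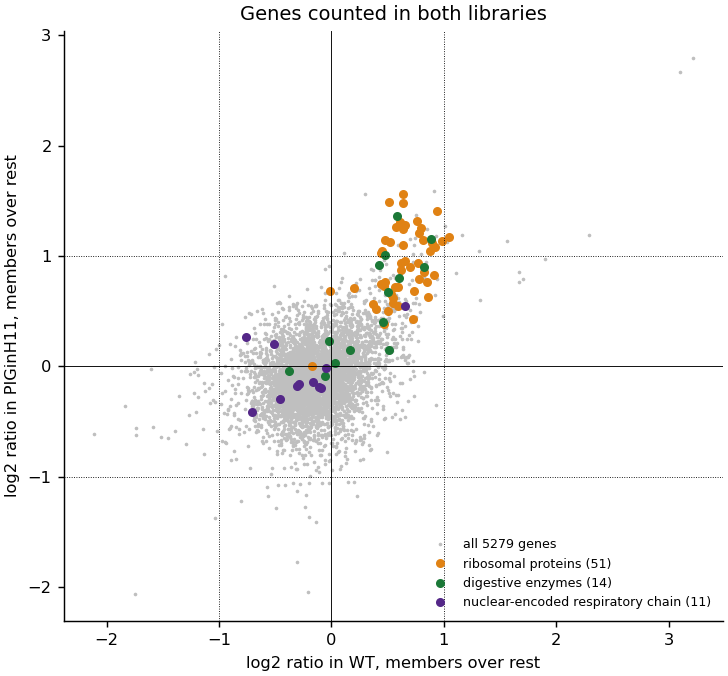
log2 ratio of members over rest for each of the 5279 genes counted in both libraries, WT on the horizontal and PIGinH11 on the vertical axis, with 51 ribosomal protein genes, 14 digestive enzymes and 11 nuclear-encoded respiratory chain genes coloured and 2-fold marked by dotted lines. Ribosomal protein genes lie right of and above 0 with few exceptions, respiratory chain genes lie among the grey points except COX4I1, and 2 grey points stand apart at the upper right.

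The 2 points that stand apart were genes without a name in the files or in the reference tables. Their numbers come shortly before that of ND1 (ENSSSCG00000018065) in the annotation, but their place in the genome is not given in the sources used here. Whether they belong to the mitochondrial genome, whose mRNAs chose the members, was not tested, and without them 8 genes were at least 2-fold higher in both libraries. ENSSSCG00000018061 was at 1931 CPM in WT members and 208.2 CPM in the rest (log2 3.21), and at 1454 and 209.8 CPM in the PIGinH11 library (log2 2.79). ENSSSCG00000018063 was at 1028 and 119.6 CPM in WT (log2 3.1), and at 1035 and 162.5 CPM in PIGinH11 (log2 2.67). They are singled out here after their values were seen, and their log2 ratios stayed at or above 2.32 in both libraries when the rest was weighted to the depth of the members, when nuclei of 4000 UMIs and over were left out and when every nucleus was thinned to 500 UMIs. Of these other 8 genes, 5 also had no name.

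Of the named genes, SERPINA1, RACK1 and RPL4 were at least 2-fold higher in both libraries. Depth-weighted, their WT log2 ratios were 0.845, 0.821 and 0.921, below 2-fold. Only the 2 unnamed genes that stand apart were then at least 2-fold higher in both libraries. SERPINA1, the protease inhibitor alpha-1-antitrypsin, was at 73.73 CPM in WT members (rest 33) and at 69.94 CPM in PIGinH11 members (rest 30.63), and its WT log2 ratio was 1.16 with all nuclei and 0.58 without those of 4000 UMIs and over. RACK1, a protein of the small ribosomal subunit, was at 155.5 CPM (rest 75.41) and 119.5 CPM (rest 53.1), and its log2 ratio in the PIGinH11 library was 1.17 with all nuclei and 0.28 without those of 4000 UMIs and over. RPL4, a protein of the large subunit, went from 1.17 to 0.50 in the same way. The 18S ribosomal RNA gene RN18S was at 7166 CPM in WT members and 2254 CPM in the rest (log2 1.67, 1.633 to 1.704), and at 1944 and 1073 CPM in the PIGinH11 library (log2 0.86, 0.776 to 0.938). PPIB, a peptidyl-prolyl isomerase of the endoplasmic reticulum, had log2 ratios of 0.66 and 0.61.

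The genes lower in both libraries were KCNJ13 and ZNF565, and 0 genes were lower in both after thinning to 500 UMIs or without nuclei of 4000 UMIs and over. KCNJ13, an inward rectifier potassium channel, gave 10 UMIs in WT members (10.1 CPM, rest 33.96) and 5 in PIGinH11 members (7.285 CPM, rest 30.39). ZNF565, a zinc finger protein, was at 47.47 CPM in WT members (rest 97.23) and at 16.03 CPM in PIGinH11 members (rest 41.57). Next came CCNH, the cyclin of the kinase that activates other cyclin-dependent kinases, with log2 ratios of −0.81 and −1.22. CDS1 and CDS2, which make CDP-diacylglycerol for phospholipid synthesis, had log2 ratios of −0.94 and −1.30 in WT and −0.70 for each in PIGinH11.

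Apart from markers of other cell types and the genes that chose the members, ribosomal protein genes had the highest summed ratio of the lists in both libraries, although in WT the depth-weighted ratio was 0.41 for them and 0.47 for digestive enzymes. The 60 genes of the list summed to 9054 CPM in WT members and 5833 CPM in the rest (log2 0.63, 0.603 to 0.665), and to 6592 and 3507 CPM in the PIGinH11 library (log2 0.91, 0.867 to 0.954). Of the genes with enough UMIs, 52 of 56 (92.9%) were above 0 in WT and 51 of 51 in PIGinH11, compared with 30.4% and 35.7% of all genes counted, and the medians were 0.63 and 0.94. At least 2-fold higher were 1 gene in WT and 23 in PIGinH11 (all genes 0.288% and 0.895%). Relative to the median gene, they were 10 and 26 (all genes 39 of 6250 and 59 of 5476). After thinning to 500 UMIs, they were 6 and 2 (all genes 56 of 6250 and 26 of 5476). RPL29, a protein of the large subunit, had log2 ratios of 0.64 and 1.56. RPS27L, a ribosomal protein paralogue, had −0.17 (−0.541 to 0.171) and 0.01 (−0.447 to 0.427).

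The PIGinH11 value rested largely on its deepest members. The 21 members with 4000 UMIs and over held 18.5% of the members' UMIs and 39.6% of their ribosomal protein UMIs. Their median ribosomal protein share was 1.06%, from 0.248% to 4.03%, compared with 0.283% in the 750 nuclei of the rest at that depth. Without nuclei of this depth, the log2 ratio was 0.50 in PIGinH11 and 0.43 in WT. In PIGinH11, 47 of 51 genes were then above 0 and 4 were at least 2-fold higher, compared with 2247 and 11 of all 5476 genes counted. From the shallowest bin to the deepest, the log2 ratio was 0.14, 0.23, 0.41 and 0.73 in WT and 0.29, 0.25, 0.89 and 1.95 in PIGinH11, above 0 in every bin. The median share of a nucleus was 0.86% in WT members and 0.561% in the rest, and 0.416% and 0.319% in the PIGinH11 library.

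Translation factors followed in part. They summed to log2 ratios of 0.27 (0.211 to 0.327) and 0.31 (0.231 to 0.390), and to 0.16 in each library without nuclei of 4000 UMIs and over. The medians over their genes were 0.01 and 0.06, with 11 of 22 (50%) and 11 of 19 (57.9%) genes above 0 (30.4% and 35.7% of all genes counted). TPT1, a translationally controlled protein and the most abundant of the list, was at 803 CPM in WT members (rest 481.6) and at 303.1 CPM in PIGinH11 members (rest 141.2). EEF1B2 and EEF2, which act in elongation, had log2 ratios of 0.72 and 0.62 in WT and of 1.02 and 0.84 in PIGinH11. EIF3H and EIF4E, which act in initiation, had −0.55 and −0.41 in WT and −0.05 and −0.07 in PIGinH11.

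Digestive enzymes were higher in members of both libraries, although the list was uneven. The 16 enzymes in the matrices summed to 120396 CPM in WT members and 81448 CPM in the rest (log2 0.56, 0.555 to 0.572), and to 78051 and 58148 CPM in the PIGinH11 library (log2 0.42, 0.412 to 0.437). Above 0 were 11 of 14 (78.6%) in WT and 13 of 15 (86.7%) in PIGinH11, compared with 30.4% and 35.7% of all genes counted, with medians of 0.47 and 0.41 and with 0 and 3 genes at least 2-fold higher (PRSS2, CLPS and, named after its value was seen, the ribonuclease RNASE1 with a log2 ratio of 1.01), where all genes gave 0.288% and 0.895%. PRSS2, which encodes trypsinogen, was at 60599 CPM in WT members and 32726 CPM in the rest (log2 0.89), and at 13239 and 5936 CPM in the PIGinH11 library (log2 1.16). CLPS, the cofactor of pancreatic lipase, had log2 ratios of 0.58 and 1.36, and CTRC, a chymotrypsin, had 0.82 and 0.90. CPA1, a carboxypeptidase, had 0.51 and 0.67, and PNLIP, the pancreatic lipase, had 0.51 and 0.15.

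Other enzymes of the same granules were not higher. CPB1, a carboxypeptidase, was at 6151 CPM in WT members and 6388 CPM in the rest, and at 4218 and 4479 CPM in the PIGinH11 library. PNLIPRP1, a lipase-related protein and the most abundant enzyme mRNA of PIGinH11 members, was at 5356 and 6935 CPM in WT (log2 −0.37) and at 18381 and 18894 CPM in PIGinH11 (log2 −0.04). Relative to the median gene, CPB1 lay above 0 in both libraries and PNLIPRP1 above 0 in PIGinH11 and below 0 in WT. Granule and protective proteins summed to log2 ratios of 0.22 and 0.20, but to 0.13 and 0.03 without nuclei of 4000 UMIs and over, with TFF2, a trefoil peptide, at 0.73 and 0.95 and with GP2, the main protein of the granule membrane, at −0.05 (−0.138 to 0.030) and −0.01 (−0.083 to 0.058).

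Depth moved with the enzyme values too. The log2 ratio of the enzymes by depth bin was 0.13, 0.30, 0.42 and 0.78 in WT and 0.10, 0.16, 0.34 and 1.16 in PIGinH11. The 21 deepest PIGinH11 members held 34.6% of the members' enzyme UMIs and 45.6% of their PRSS2 UMIs, and without nuclei of 4000 UMIs and over the PIGinH11 ratio was 0.17 and the WT ratio 0.43, and 0 enzymes were at least 2-fold higher in either library. In the PIGinH11 library, the ratio was −0.03 for the top 1% by mitochondrial share and −0.05 for nuclei chosen by the ND genes alone. Endothelial gate nuclei, which do not make these enzymes, held 35132 CPM of enzyme mRNA in WT and 6371 CPM in PIGinH11 (18234 and 1289 CPM of PRSS2), and the rest of the ductal gate held 34321 and 8856 CPM of enzyme mRNA. The top 5% of the gate by enzyme share, a set of the same size, held 54 of 446 WT members (12.1%, 9.23 to 15.5) and 59 of 489 PIGinH11 members (12.1%, 9.31 to 15.3), against 5% of all gate nuclei, so that most members were not among the enzyme-richest nuclei.

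**Figure D4:**
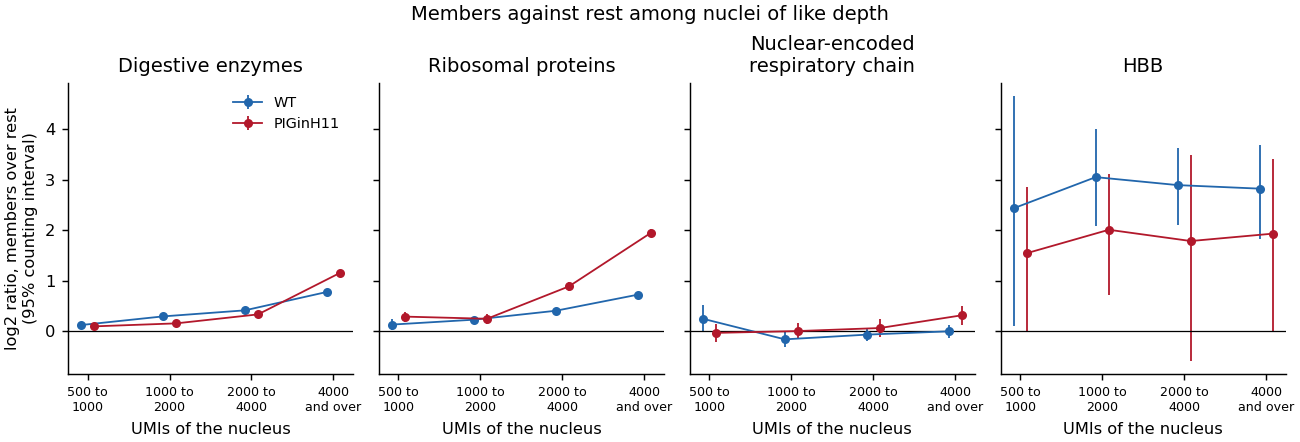
log2 ratio of members over rest among nuclei of the same range of UMIs for digestive enzymes, ribosomal proteins, the nuclear-encoded respiratory chain and HBB, with 95% counting intervals and 1 line per library. The first 2 panels rise from left to right in WT and reach 1.16 and 1.95 in the deepest PIGinH11 bin of 21 members, the third lies between −0.16 and 0.32, and HBB is above 0 in every bin.

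A list of 5 other genes abundant in the acinar gate, which the gate did not use, was lower in members. GRB10, RBMS2, FOXP2, CAMK1D and KCNMA1, called other acinar markers here, summed to 9720 CPM in WT members and 11997 CPM in the rest (log2 −0.30, −0.333 to −0.274), and to 9343 and 11435 CPM in the PIGinH11 library (log2 −0.29, −0.328 to −0.256). All 5 were below 0 in both libraries, where 30.4% and 35.7% of all genes counted were above 0, and 0 reached 2-fold. Relative to the median gene, GRB10 was at 0.07 in WT. KCNMA1, a calcium-activated potassium channel and the most abundant of them, was at 3550 CPM (rest 4658) and 2949 CPM (rest 3828). The rest of the ductal gate held 505.1 and 988.6 CPM of this list, far below the members. The 7 gate genes themselves summed to log2 ratios of −0.12 and −0.08, which the gate's own threshold constrains and which lay above 0 relative to the median gene (0.03 and 0.01).

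Acinar transcription factors were also lower. The list summed to log2 ratios of −0.26 (−0.304 to −0.215) and −0.24 (−0.295 to −0.183), with medians of −0.21 and −0.25 over 10 and 9 genes. GATA6, a zinc finger factor of pancreas development, was at 243.4 CPM in WT members (rest 319.9) and at 292.9 CPM in PIGinH11 members (rest 408.6). NR5A2, a nuclear receptor that drives enzyme genes, had log2 ratios of −0.21 and −0.25, and BHLHA15, which shapes the secretory apparatus, had −0.08 (−0.478 to 0.294) and 0.22 (−0.339 to 0.733). Both lists lay below the median gene of their library, but among WT nuclei of 500 to 1000 UMIs the transcription factors had a log2 ratio of 0.08 (−0.110 to 0.267) and the 5 markers −0.06 (−0.198 to 0.072). In the same bin of PIGinH11, these were −0.09 (−0.206 to 0.025) and −0.16 (−0.235 to −0.085).

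Length of the gene moved with these differences. Genes whose annotated span is under 10 kb took 17.4% of the nuclear UMIs with a known span in WT members and 11.5% in the rest, and 10.5% and 7.29% in the PIGinH11 library. Genes of over 100 kb took 42.3% and 47.1% in WT, and 45.3% and 48.9% in PIGinH11. Without enzyme and ribosomal protein genes, short genes still took 7.43% and 5.59% in WT, and 6.4% and 5.07% in PIGinH11. The median log2 ratio was 0.20 and 0.27 for the 315 genes under 10 kb, −0.15 and −0.09 for the 2756 genes of 10 to 100 kb, and −0.20 and −0.15 for the 1555 genes over 100 kb. Members were therefore relatively rich in short genes and poor in long ones in both libraries.

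Secretory pathway genes changed little as a group. The 38 genes of the endoplasmic reticulum translocon and of protein folding in the matrices summed to log2 ratios of −0.07 (−0.103 to −0.035) in WT and 0.04 (−0.003 to 0.083) in PIGinH11, and the WT value was 0.09 relative to the median gene. P4HB and PDIA2, which form disulfide bonds in new proteins, had log2 ratios of 0.67 and 0.65 in WT and of 0.53 and 0.36 in PIGinH11. ATF6, a sensor of unfolded proteins, had −0.36 and −0.21, and the chaperone CANX had −0.47 (−0.734 to −0.224) and −0.20 (−0.505 to 0.098).

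Stress lists were mixed. Heat shock genes summed to 1777 CPM in WT members and 2225 CPM in the rest (log2 −0.33, −0.394 to −0.257), and to 826.2 and 805.7 CPM in the PIGinH11 library (log2 0.04, −0.088 to 0.157). HSP70.2, an inducible chaperone, was at 580.8 CPM in WT members and 844.9 CPM in the rest, while the PIGinH11 members gave 6 UMIs of it. HSP90AB1, a constitutive chaperone, was higher in members of both, with log2 ratios of 0.55 (0.131 to 0.938) and 0.63 (0.142 to 1.091). TXNIP, the thioredoxin inhibitor that glucose induces, was at 244.4 CPM in WT members (rest 383) and at 747.5 CPM in PIGinH11 members (rest 829). Immediate early genes summed to log2 ratios of −0.43 (−0.573 to −0.295) in WT and 0.25 (0.060 to 0.443) in PIGinH11, a difference between the libraries that was not tested. Depth-weighted, the WT ratios were −0.18 for heat shock genes and −0.26 for immediate early genes, and the PIGinH11 ratio of immediate early genes was 0.18. EGR1, an immediate early factor named after its value was seen, was at 69.69 CPM in WT members and 150.4 CPM in the rest. The redox list summed to log2 ratios of −0.22 (−0.312 to −0.130) and −0.05 (−0.144 to 0.036), but TXNIP made up 24% and 49% of its UMIs in members, and the ratios were −0.11 and 0.01 when depth-weighted and −0.07 and 0.04 relative to the median gene. Without TXNIP, an alternative chosen after seeing the data, the ratios were −0.05 (−0.160 to 0.049) and 0.05 (−0.082 to 0.171), with GPX4, a peroxidase for lipid peroxides, at 0.42 (−0.081 to 0.882) and 0.81 (0.297 to 1.288).

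Markers of other cell types were read in the same nuclei. The erythroid list moved most: HBB, the beta chain of haemoglobin, gave 55 UMIs in 49 WT members and 21 UMIs in 19 PIGinH11 members, which is 55.55 CPM in WT (rest 6.594) and 30.6 CPM in PIGinH11 (rest 8.096). Its log2 ratio was 3.08 (2.620 to 3.508) and 1.92 (1.180 to 2.589), and no nucleus held more than 2 of these UMIs. The other erythroid genes in the matrices, HBM, HBE1 and ALAS2, were at 0 in members. HBA1 and HBA2 of the same list were not in the matrices under these names and could not be read. HBB was above the rest in each of the 4 depth bins of both libraries, with intervals that reached 0 in the shallowest, the third and the deepest bin of the PIGinH11 library. In endothelial gate nuclei, HBB gave 2 UMIs in WT and 1 in PIGinH11. The part of HBB-bearing RNA in the other results was not tested.

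Endocrine markers had a higher sum in members, but the sign differed between depth bins in both libraries, and 1 nucleus decided the WT value. The list summed to 814.1 CPM in WT members (rest 351.8) and to 482.3 CPM in PIGinH11 members (rest 361.8), led by INS, with CHGB and IAPP at 0. GCG, which encodes glucagon, gave 302 UMIs in WT members, of which 270 came from 1 nucleus. Without the nucleus that held most of each, the WT log2 ratio was 0.49 (0.357 to 0.622) for the list and 0.66 (0.104 to 1.176) for GCG, in place of 1.21 and 3.90. From the shallowest bin to the deepest, and with that nucleus kept, the log2 ratio of the list was −0.33, 0.20, 1.51 and −0.08 in WT and 0.05, −0.04, 1.13 and 0.05 in PIGinH11. The medians over the 5 genes counted in each library were 0.14 and 0.08. INS, which encodes insulin, was at 351.5 CPM in WT members (rest 196.7) and at 180.7 CPM in PIGinH11 members (rest 93.82), with 153.9 and 50.57 CPM in endothelial gate nuclei. With the rest weighted to the depth of the members, the log2 ratio of INS was 0.25 and 0.73 in place of 0.84 and 0.95. SST and PPY, which encode somatostatin and pancreatic polypeptide, gave 14 UMIs or fewer in the members of either library.

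The other lists were small or near the rest. Ductal markers, without the 3 gate genes, summed to 476.7 CPM in WT members (rest 376.4) and to 623.6 CPM in PIGinH11 members (rest 493.9), with ONECUT2 at 0 in WT, and the WT log2 ratio went from 0.34 to −0.03 and the PIGinH11 ratio from 0.34 to 0.15 when depth-weighted. Endothelial markers, led by PECAM1, were at 157.6 CPM (rest 129) and 323.5 CPM (rest 265.6), and stellate and mural markers, led by PRKG1, at 86.86 CPM (rest 57.73) and 119.5 CPM (rest 91.04), with PDGFRB and COL1A1 at 0 in PIGinH11. Immune markers, led by SKAP1, were at 925.2 CPM (rest 1082) and 747.5 CPM (rest 727), with MS4A1 and LYZ at 0 in both libraries. Schwann markers were at 48.48 CPM (rest 48.54) and 135.5 CPM (rest 84.46), with CDH19 at 0 in WT. Adipocyte markers, led by LPL, were at 90.9 CPM (rest 94.6) and 139.9 CPM (rest 160.3). Depth-weighted, the log2 ratios were 0.18 and 0.17 for endothelial, 0.37 and 0.10 for stellate and mural and −0.09 and 0.46 for Schwann markers, in place of 0.29 and 0.28, 0.59 and 0.39, and 0.00 and 0.68. Their part in the results above was not tested.

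**Figure D5:**
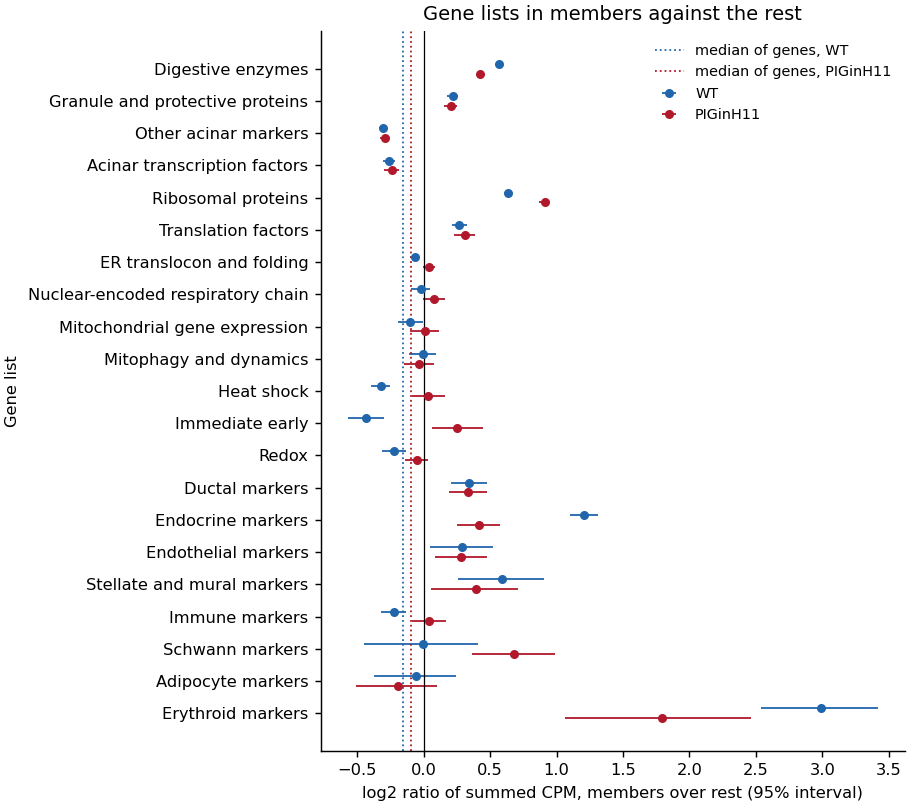
log2 ratio of the summed CPM of each gene list, members over rest, with 95% counting intervals, WT in blue and PIGinH11 in red, and the median of all genes counted as a dotted line. Ribosomal proteins, digestive enzymes and erythroid markers lie right of 0 in both libraries, other acinar markers and acinar transcription factors lie left of both dotted lines, and immediate early genes lie on opposite sides.

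Along the whole range of mitochondrial share, the groups moved in the WT library and less evenly in the PIGinH11 library. Depth moved along this range too, with a median of 1495 UMIs in the WT top 1% and 4032 UMIs in the lower 50%. In PIGinH11, these medians were 1112 and 1141 UMIs, with 942 UMIs in the 1 to 5% range and 1966 UMIs in the 25 to 50% range. The levels below were not weighted for depth, and the part of depth in them was not tested. From the top 1% to the lower 50% of the WT gate, enzyme mRNA was at 130737, 118319, 124545, 123361, 92975 and 66672 CPM in 6 consecutive ranges (top 1%, 1 to 5%, 5 to 10%, 10 to 25%, 25 to 50% and lower 50%). Ribosomal protein mRNA went from 10294 CPM in the WT top 1% to 4872 CPM in the lower 50%. In the PIGinH11 library, enzyme mRNA was at 57768, 82883, 65108, 63236, 60006 and 54453 CPM and ribosomal protein mRNA at 4286, 7141, 4671, 4360, 3430 and 3215 CPM, so that the top 1% lay below the next range. Of PIGinH11 gate nuclei, 58.8% had no mitochondrial UMI, so their place within the lower ranges is arbitrary. Other acinar markers were at 8930 CPM in the WT top 1% and 12567 CPM in the lower 50%, and at 9185 and 11428 CPM in PIGinH11. HBB was at 102.6 CPM in the WT top 1% (17 UMIs) and 3.692 CPM in the lower 50%, and at 90.87 CPM (12 UMIs) and 7.149 CPM in PIGinH11. Among the members alone, the share of mitochondrial UMIs had Pearson correlations over nuclei from −0.138 to 0.088 with the shares of enzymes, ribosomal proteins, the nuclear-encoded respiratory chain and other acinar markers, and with depth, where the points share a library and the same denominator.

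The same choice was made in ductal nuclei, where the top 5% was again shallower, with a median of 1468 UMIs in WT (rest 3500) and 776 UMIs in PIGinH11 (rest 1135). Of these PIGinH11 nuclei, 77.5% had 3 or fewer mitochondrial UMIs, and no ratio of the ductal gate was weighted for depth. The ductal gate held 2196 WT and 2047 PIGinH11 nuclei with 780.2 and 305.8 CPM of mitochondrial mRNA, against 1387 and 523.1 CPM in the acinar gate. In its top 5% (110 and 102 nuclei), ribosomal proteins had log2 ratios of 1.00 (0.928 to 1.067) and 1.07 (0.933 to 1.213), and the nuclear-encoded respiratory chain had −0.01 (−0.147 to 0.124) and 0.10 (−0.112 to 0.299). Digestive enzymes, which ductal cells do not make, had 1.35 (1.333 to 1.376) and 1.39 (1.330 to 1.455), and INS had 1.88 (1.613 to 2.136) and 2.48 (2.009 to 2.916). Other acinar markers were higher in the ductal top 5% (log2 0.73 and 0.53), whereas they were lower in acinar members. Genes of the endoplasmic reticulum had 0.56 and 0.56 there, and the mitochondrial gene expression list had −0.08 and −0.47. The enzyme and INS ratios of the acinar members, 0.56 and 0.42 for enzymes and 0.84 and 0.95 for INS, were smaller, and the difference between the gates was not tested.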

How the data were processed

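Nuclei of 1 pancreas piece per pig were sequenced on the 10x platform, with 1 library for each of WT and PIGinH11. The deposited matrices hold raw UMI counts per gene and barcode, which the authors made with Cell Ranger (3.1.0 per the labels, 5.0.0 per the file headers) on Sscrofa11.1, with barcodes called as nuclei but before their removal of doublets and their filters on genes, UMIs and mitochondrial share. These counts were used unchanged. The members and gene lists were chosen with earlier results of these data known. Symbols of 841 genes were filled in from a table of Ensembl IDs, and 15410 of 31908 genes had no symbol in the matrices. Doublets were scored (Scrublet in scanpy 1.11.5) and left out only as an alternative.

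UMIs were summed over members and over the rest of each gate, divided by all UMIs of the same nuclei, and compared as a log2 ratio with exact 95% intervals (numpy 2.4.6, scipy 1.17.1). A gene was counted when its rate in the whole gate predicted at least 20 UMIs in the members of each library it was counted in. The genes named were the 13 mitochondrial genes, 10 genes of earlier interest, the 3 highest and 2 lowest of each list, and the 10 highest and 10 lowest named genes outside the lists, ranked over both libraries. Where few genes of a list were counted, fewer were named. Some genes that met this rule are not reported here. The script was tested on simulated data. The alternatives changed the share that chose members, their genes, depth, doublets, scaling and thresholds.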

Additional observations from a re-analysis of the deposited data

Results flagged for a closer look

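Immediate early genes, which cells induce within minutes of a stimulus, lay on opposite sides of 0 in the libraries, with a summed log2 ratio of members over rest of −0.432 in WT and 0.254 in PIGinH11. The PIGinH11 sum rested on 237 UMIs in members, and depth-weighted the ratios were −0.258 in WT and 0.181 in PIGinH11. JUN, the most abundant of these genes, was at 214.1 CPM in WT members (rest 255.7) and at 112.2 CPM in PIGinH11 members (rest 93.88). Its log2 ratio was −0.26 (−0.460 to −0.059) in WT and 0.26 (−0.092 to 0.588) in PIGinH11. The difference between the libraries was not tested, and with 1 library per group it cannot be told apart from animal, tissue piece and library. Single samples could not be compared with others of their group.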

How the results depend on the processing

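No paired analysis was possible because each group has 1 library. Leaving out a replicate was not possible for the same reason. Depth limits PIGinH11 most, since membership there rests on few mitochondrial UMIs. For the 10 genes higher and 2 lower in both libraries, the counts were 5 and 1 with the top 1% of the gate, 4 and 1 with the top 10%, 5 and 1 among nuclei of at least 1000 UMIs, 3 and 0 after thinning to 500 UMIs, 2 and 1 with the rest weighted to the depth of the members, 16 and 0 with a denominator without mitochondrial, enzyme and ribosomal protein genes, 21 and 1 with median-of-ratios scaling, 3 and 0 with 50 UMIs expected, 25 and 50 with 5 UMIs expected, and 73 and 27 at 1.5-fold. Higher genes numbered 5 when the ND genes chose and 3 as a mean over nuclei. The following alternatives were chosen after seeing the data: members with at least 10 mitochondrial UMIs gave 4 and 0, and nuclei with fewer than 4000 UMIs gave 4 and 0.

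The summed log2 ratios, in WT and then PIGinH11, moved as follows. Digestive enzymes (0.564 and 0.425) reversed in PIGinH11 for the top 1% (0.667 and −0.029) and for choice by the ND genes (0.532 and −0.050), and the cause was not tested. They were 0.619 and 0.314 for the top 10%, 0.517 and 0.521 at 1000 UMIs and over, 0.586 and 0.398 for choice by the COX, ATP and CYTB genes, 0.517 and 0.188 thinned, 0.465 and 0.466 depth-weighted, 0.519 and 0.187 as a mean over nuclei, 0.652 and 0.467 with the other denominator, 0.718 and 0.521 with median-of-ratios scaling, 0.552 and 0.839 with 10 mitochondrial UMIs, and 0.432 and 0.170 under 4000 UMIs. Ribosomal proteins (0.634 and 0.911) stayed above 0 throughout, at 0.801 and 0.242 for the top 1%, 0.557 and 0.998 at 1000 UMIs and over, 0.566 and 0.265 for choice by the ND genes, 0.566 and 0.493 as a mean, 0.788 and 1.007 with median-of-ratios scaling, and 0.432 and 0.498 under 4000 UMIs. They moved in WT alone to 0.405 depth-weighted and 0.723 with the other denominator, and in PIGinH11 alone to 0.717 for the top 10%, 0.477 thinned and 1.395 with 10 mitochondrial UMIs. The nuclear-encoded respiratory chain (−0.022 and 0.079) was at 0.133 and 0.175 with median-of-ratios scaling, 0.067 in WT with the other denominator and −0.020 in PIGinH11 thinned.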

Other observations

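Nuclei with a mitochondrial share at or above that of the lowest member were also found outside the acinar gate. In the ductal gate they were 24 of 2196 WT nuclei (1.09%, 0.701 to 1.62) and 70 of 2047 PIGinH11 nuclei (3.42%, 2.68 to 4.3). Among barcodes within the limits on genes and UMIs but in neither gate, they were 125 of 2068 in WT (6.04%, 5.06 to 7.16) and 190 of 3079 in PIGinH11 (6.17%, 5.35 to 7.08). Outside those limits, 8 of 430 WT and 2 of 56 PIGinH11 barcodes reached the share. These nuclei entered no comparison of members with the rest. The intervals cover counting error only, and the share at the border is 0.7112% in WT and 0.2407% in PIGinH11, so the libraries were not held to the same level.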
